A study of Mus musculus with 8 samples.

Results

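The genes described here are 10 genes of the pancreas, 7 of the exocrine acinar cell (Pnliprp1, Ctrb1, Cpa1, Clps, Cela2a, Cel and Bhlha15) and 3 of the endocrine islet (Gcg, Ins1 and Iapp), measured in embryonic mouse kidney. They were taken by symbol from all 8 tables, 10 of 24151 gene symbols, and each has 1 RefSeq transcript in the files. They had been picked for their level by stage and agent in these same libraries, so their levels are given as a description, without a test. The libraries with the tested agent came from kidneys of ICR embryos, an outbred stock, whose mothers received chlorpyrifos (CPF), an organophosphate insecticide, injected subcutaneously at 5 mg per kg once daily over gestation days 7.5 to 11.5. The libraries they are set against came from embryos whose mothers received an equal volume of dimethyl sulfoxide (DMSO), the solvent that the CPF mothers received too. Mothers were mated at 8 weeks of age. Each agent has 4 libraries of total RNA, 1 at each of the stages E12.5, E14.5, then E16.5 and last E18.5, so a stage holds 1 CPF and 1 DMSO library and no replicate. The sources used here do not say how many embryos or litters were pooled for 1 library.

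The pancreas arises from the foregut endoderm beside the stomach, duodenum and spleen. Its acinar cells make digestive enzymes under the transcription factor complex PTF1, of which Ptf1a and Rbpjl are subunits. Its islets hold alpha cells, which make glucagon, and beta cells, which make insulin and amylin. None of these hormones or enzymes defines a kidney cell.

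Values are TPM, a transcript's length-scaled share of its library, so that levels can be set side by side between genes. Depth is not given, but 47.3 to 63.4% of low values in a library fell on steps that put 1 read in 1 kb of transcript at 0.0610 to 0.104 TPM. The read numbers below are estimates from these steps and from GENCODE transcript lengths. Genes with several RefSeq transcripts were listed low throughout. Of 4777 such symbols 22.7% averaged 1 TPM or more, against 60.9% of the 19374 symbols with 1 transcript, so their low values are given only as listed. Kidney markers were present in every library. Wt1, a transcription factor of nephron progenitors and podocytes, read 76.0 to 107 TPM in CPF and 69.9 to 155 TPM in DMSO libraries, and Six2, which maintains the progenitors, read 8.38 to 45.6 TPM in CPF and 35.1 to 82.3 TPM in DMSO libraries. In bulk RNA, more cells of a type and more RNA per cell cannot be told apart.

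All 10 pancreas genes were highest in 1 library, E16.5 CPF. Their summed level was 2854 TPM there, against 7.14 TPM in the E16.5 DMSO library, and 3.60 to 14.6 TPM in the 3 other CPF libraries against 1.74 to 10.2 TPM in the 3 other DMSO libraries. At E16.5, 10 of 10 were at least 2-fold higher in CPF on the scale of TPM + 1, where 4.73% of all 24151 symbols were. At E12.5, E14.5 and E18.5 it was 1 of 10 each (Pnliprp1, Cela2a and Cpa1), where 4.02%, 4.07% and 12% of all symbols were (2889 of 24151 at E18.5), and 0 of 10 was at least 2-fold lower at any stage, where 1.48%, 1.45%, 1.95% and 1.22% of all symbols were in order of stage. These counts come from the values that chose the genes, and nothing is read from them.

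**Figure D1:**
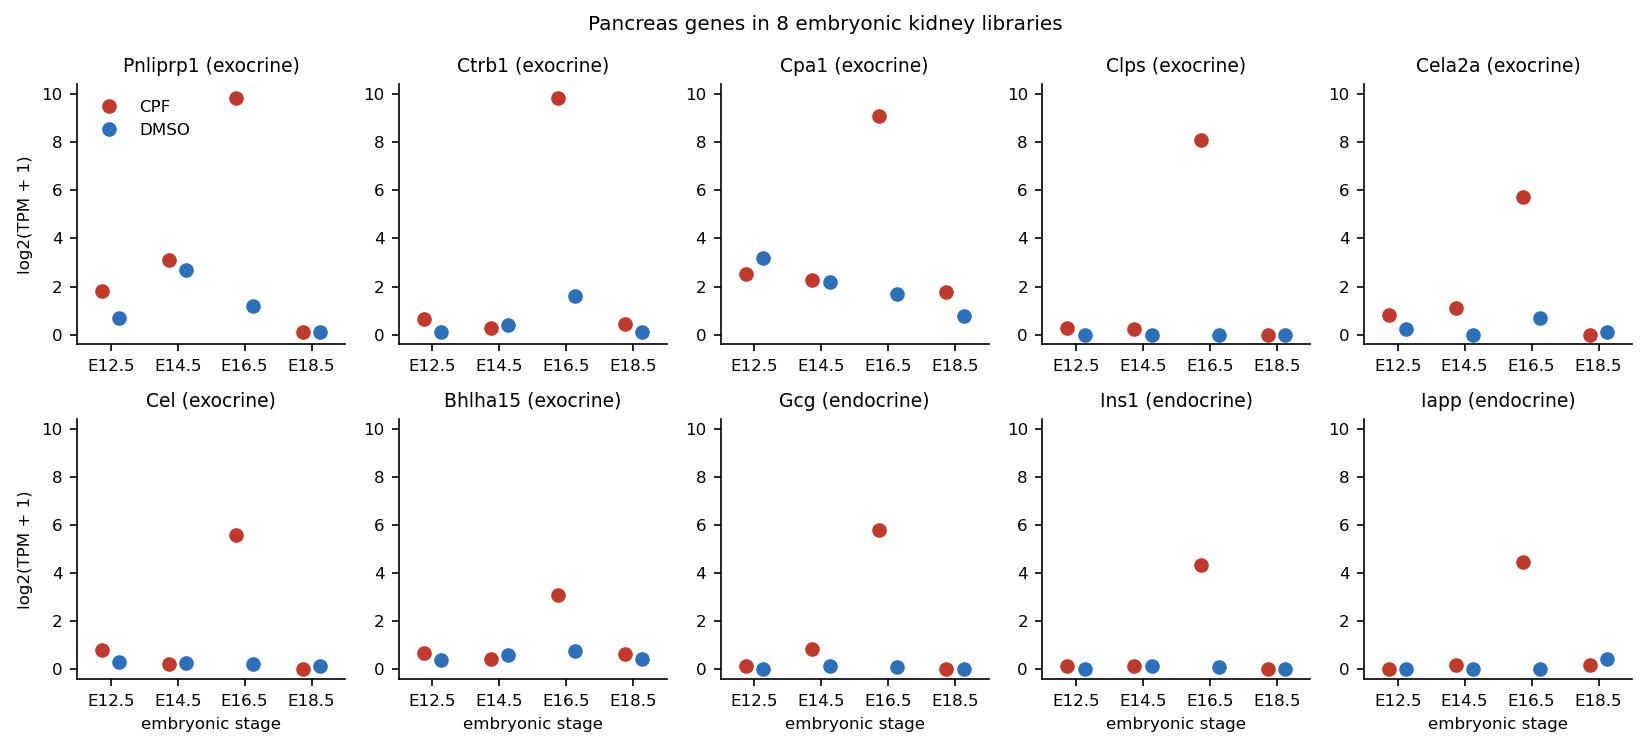
Level of each of the 10 pancreas genes as log2(TPM + 1) (y axis) at 4 embryonic stages (x axis), with 1 point per library, CPF in red left of DMSO in blue. In every panel the E16.5 CPF library is the highest point, from 7.44 TPM for Bhlha15 to 917 TPM for Pnliprp1.

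Among the digestive enzymes, Pnliprp1, a homologue of pancreatic lipase, had the highest level. It read 2.51, 7.66, 917 and 0.0650 TPM in CPF libraries in order of stage, against 0.601, 5.51, 1.26 and 0.0755 TPM in the DMSO libraries. The E16.5 CPF library was 120-fold above the next, E14.5 CPF, and both E14.5 libraries were above both E12.5 libraries and the E18.5 ones. Ctrb1, the zymogen of the protease chymotrypsin B, read 0.573, 0.214, 913 and 0.356 TPM in CPF libraries, against 0.0914, 0.335, 2.06 and 0.0689 TPM in DMSO libraries. Its next highest library was E16.5 DMSO, by a factor of 442. The 913 TPM rest on about 9911 reads, and the 7 other libraries together on about 42.

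Cpa1, carboxypeptidase A1, which trims amino acids from the C terminus of proteins and marks the multipotent tips of the early pancreas, was above 0 in all libraries. It read 4.82, 3.89, 548 and 2.46 TPM in CPF libraries, against 8.21, 3.51, 2.23 and 0.696 TPM in DMSO libraries. Among the DMSO libraries it was lower at each later stage, and at E12.5 the CPF library lay below the DMSO library (log2 difference -0.66). With 1 library per stage and agent, no spread is known against which the levels outside E16.5 CPF could be ordered.

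Clps, colipase, the cofactor that anchors pancreatic lipase to fat droplets, had the sharpest profile. It read 0.205, 0.191, 273 and 0 TPM in CPF libraries and was listed at 0 in all 4 DMSO libraries. About 2064 reads stood behind the E16.5 CPF value and about 2 behind all other libraries together. Cela2a, a pancreatic elastase, read 0.781, 1.14, 51.4 and 0 TPM in CPF libraries, against 0.178, 0, 0.595 and 0.0671 TPM in DMSO libraries. Cel, the bile salt-dependent ester lipase, read 0.746, 0.185, 47.6 and 0 TPM in CPF libraries, against 0.238, 0.194, 0.166 and 0.120 TPM in DMSO libraries. For both, the E12.5 CPF library lay above the E12.5 DMSO library, and the E18.5 CPF library was listed at 0.

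Bhlha15 (MIST1), the transcription factor that sets up the secretory apparatus of acinar cells and is also used by other secretory cells, was the least peaked of the 10. It read 0.606, 0.350, 7.44 and 0.568 TPM in CPF libraries, against 0.323, 0.507, 0.694 and 0.365 TPM in DMSO libraries. It was above 0 everywhere, with about 142 reads in the 7 other libraries together, and its E16.5 CPF level was 10.7-fold above the next. Its E16.5 log2 difference on TPM + 1 was 2.32, against 5.04 to 8.67 for Cela2a, Cel, Cpa1, Ctrb1 and Pnliprp1.

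The islet genes showed the same library. Gcg encodes proglucagon, the precursor of glucagon in alpha cells and of incretins in gut cells. It read 0.0929, 0.779, 55.3 and 0 TPM in CPF libraries, against 0, 0.0907, 0.0620 and 0 TPM in DMSO libraries. The second highest was E14.5 CPF, with about 9 reads, against about 744 in E16.5 CPF. Ins1, 1 of the insulin genes of the mouse, read 0.0992, 0.0925, 19.4 and 0 TPM in CPF libraries, against 0, 0.0968, 0.0662 and 0 TPM in DMSO libraries. Apart from about 255 reads in E16.5 CPF, its values came to about 1 read in each of 4 libraries and 0 in 3. Iapp, amylin, which beta cells release with insulin, read 0, 0.136, 21.3 and 0.151 TPM in CPF libraries, against 0, 0, 0 and 0.351 TPM in DMSO libraries. Ins2, the other insulin gene, was listed at 0 in all 8 libraries. It has 3 RefSeq transcripts in the files, and reads of the near-identical Ins1 and Ins2 messages may be split or dropped in counting.

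Within the E16.5 CPF library the 7 exocrine genes summed to 2758 TPM and the 3 endocrine genes to 96.0 TPM, a ratio of 28.7. Pnliprp1, Ctrb1, Cpa1 and Clps made up 92.9% of the sum of the 10. Together the 10 genes took 0.285% of the library's TPM.

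The genes lie apart in the genome. On GRCm38.p6, the assembly that mm10 names, Cel is on chromosome 2 at 28555819 to 28563403 and Gcg on the same chromosome at 62474530 to 62483653. Cpa1 is on chromosome 6 at 30639218 to 30645361 and Iapp at 142298425 to 142303820. Ins1 is on chromosome 19 at 52264297 to 52265015 and Pnliprp1 at 58728887 to 58744169. Cela2a lies on chromosome 4 (141814954 to 141826005), Bhlha15 on chromosome 5 (144190286 to 144194441), Ctrb1 on chromosome 8 (111686510 to 111691010) and Clps on chromosome 17 (28558210 to 28560766).

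Of the 10 genes, 9 have an entry in the RefSeq promoter table of GRCm38.p6, all but Clps. The 250 bases before each start were searched on both strands for CANNTG, the E box that helix-loop-helix factors read, and for TGGGAA, the letters that the RBPJ or RBPJL subunit of PTF1 reads. TGGGAA was found before 5 of 6 exocrine genes and 2 of 3 endocrine genes, and in 21.6% of 32851 windows of all genes. A TGGGAA with a CANNTG at any gap of 0 to 20 bases, a looser search than for a PTF1 site, whose boxes keep a set spacing, was found before Ctrb1, Cpa1, Cel and Ins1, and in 4.29% of all windows. The E box alone was found before all 9, and in 66.2% of all windows. TAAT, the core that homeodomain factors such as PDX1 read, was found before 3 of 3 endocrine and 3 of 6 exocrine genes, and in 54.9% of all windows. Such matches describe the letters and show no binding. The exocrine windows with the paired letters are shown because Ptf1a and Rbpjl, described below, were highest in the same library, and the capitals mark the pair, read as TTCCCA where TGGGAA lies on the other strand.
Ctrb1, chr8:111691011-111691260, minus strand: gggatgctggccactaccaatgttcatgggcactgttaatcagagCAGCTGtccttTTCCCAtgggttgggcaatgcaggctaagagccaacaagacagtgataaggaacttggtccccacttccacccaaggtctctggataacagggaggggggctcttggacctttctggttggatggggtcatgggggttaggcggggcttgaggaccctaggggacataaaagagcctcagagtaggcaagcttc
Cpa1, chr6:30638968-30639217, plus strand: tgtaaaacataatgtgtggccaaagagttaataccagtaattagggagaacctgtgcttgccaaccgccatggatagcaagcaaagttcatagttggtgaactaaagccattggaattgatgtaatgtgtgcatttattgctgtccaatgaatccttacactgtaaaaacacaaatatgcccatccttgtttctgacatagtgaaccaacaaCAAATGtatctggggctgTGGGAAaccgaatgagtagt
Cel, chr2:28563404-28563653, minus strand: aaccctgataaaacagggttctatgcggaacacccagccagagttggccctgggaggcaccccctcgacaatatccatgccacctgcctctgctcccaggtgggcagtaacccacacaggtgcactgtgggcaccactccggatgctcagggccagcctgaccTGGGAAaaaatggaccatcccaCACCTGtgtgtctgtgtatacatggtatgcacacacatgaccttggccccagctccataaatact
The windows of the hormone genes Gcg and Ins1 are shown for comparison, and here the capitals mark TAAT (ATTA where it lies on the other strand) and CANNTG.
Gcg, chr2:62483654-62483903, minus strand: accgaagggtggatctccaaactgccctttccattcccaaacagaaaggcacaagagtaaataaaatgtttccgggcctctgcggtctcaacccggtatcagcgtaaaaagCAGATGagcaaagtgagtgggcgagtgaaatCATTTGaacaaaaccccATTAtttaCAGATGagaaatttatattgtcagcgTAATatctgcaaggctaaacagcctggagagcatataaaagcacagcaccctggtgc
Ins1, chr19:52264047-52264296, plus strand: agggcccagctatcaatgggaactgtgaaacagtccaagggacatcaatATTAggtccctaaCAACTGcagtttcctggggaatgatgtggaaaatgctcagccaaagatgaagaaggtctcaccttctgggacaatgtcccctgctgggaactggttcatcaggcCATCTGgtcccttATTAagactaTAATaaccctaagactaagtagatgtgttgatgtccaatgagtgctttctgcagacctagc
In the Ctrb1 window the pair is 5 bases apart, with its TGGGAA match starting 194 bases before the start. In Cpa1 the gap is 12 bases and in Cel 16 bases, with the TGGGAA matches starting 20 and 87 bases before the start. Ins1 has a pair too, with a gap of 14 bases. Its TGGGAA match starts 104 bases before the start and is left in small letters above.

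How far a gene is confined to 1 library was expressed as the share of its TPM over the 8 libraries that the library holds. The E16.5 CPF library held 94.9 to 99.9% of the TPM of 9 of the 10 genes, and 68.6% for Bhlha15. Over the 12874 symbols with a mean of at least 1 TPM the median share of this library was 12.8% and the 99th percentile 44.0%. Of these symbols, 34 had at least 80% of their TPM in E16.5 CPF, 28 in E14.5 CPF, 19 in E18.5 CPF and 0 in E12.5 CPF, against 1, 3, 0 and 0 in the DMSO libraries of the same stages.

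**Figure D2:**
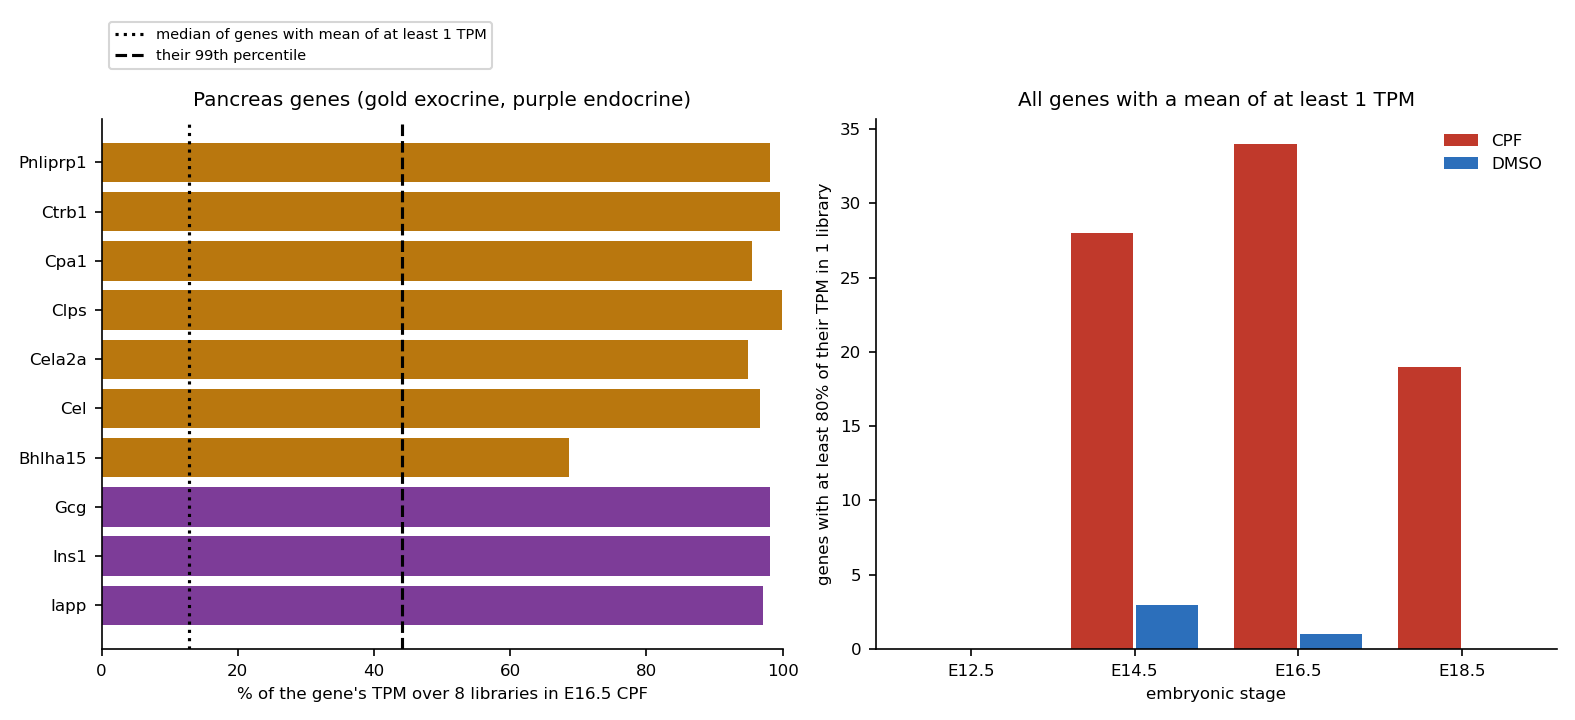
Left, percentage of each gene's TPM over the 8 libraries that the E16.5 CPF library holds (x axis) for the 10 genes, with the median (12.8%, dotted) and 99th percentile (44.0%, dashed) of symbols with a mean of at least 1 TPM. Right, number of symbols with at least 80% of their TPM in 1 library, by stage, CPF in red left of DMSO in blue; the E16.5 CPF library has 34.

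Other pancreas genes, 100 with a row in the files, were taken from 7 lists of acinar, islet, progenitor and duct genes. Over the 95 of them that were above 0 in any library, 39 (41.1%) had at least 50% of their TPM in E16.5 CPF, where 1.58% of all symbols above 0 did. In the 7 other libraries this count was 0 to 8, the 8 being in E18.5 CPF. At E16.5, 49 of the 100 were at least 2-fold higher in CPF and 1 was lower, against 4.73% and 1.95% of all symbols. At E12.5 it was 8 higher and 2 lower, against 4.02% and 1.48% of all symbols. At E14.5 it was 10 and 1, against 4.07% and 1.45% of all symbols. At E18.5 it was 17 and 1, against 12% and 1.22% of all symbols. Their median log2 difference at E16.5 was 0.95, against 0 for all symbols.

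Digestive enzymes other than the 10 followed. Of 19, 12 had at least 50% of their TPM in E16.5 CPF, where 1.58% of all symbols above 0 did. At E16.5, 15 of the 19 were at least 2-fold higher in CPF. Over all symbols 4.73% were at least 2-fold higher at E16.5 and 1.95% lower, for this and the later list counts. Cela1, an elastase, read 6.79, 5.05, 46.6 and 39.5 TPM in CPF libraries, against 7.40, 2.42, 4.29 and 9.17 TPM in DMSO libraries, and was high at E18.5 in CPF too. Cpb1, carboxypeptidase B1, had a log2 difference of 1.93 at E16.5, and Ctrl, a chymotrypsin-like protease, one of -0.20, with 3.58 TPM in E16.5 CPF, against 4.28 TPM in E16.5 DMSO. Cela3b, another elastase, read 22.4 TPM in E16.5 CPF and 0 to 0.423 TPM elsewhere. Pnlip, the classical pancreatic lipase, reached only 0.439 TPM in E16.5 CPF, below its 1.04 TPM in E12.5 DMSO. The trypsinogens Prss1 and Prss2 read 9.69 and 9.86 TPM in E16.5 CPF, and at most 0.245 and 0.491 TPM elsewhere. As members of a near-identical family, the trypsinogens and the Cela3 pair may share reads. Pnlip, the trypsinogens and Cela3b were named after their values were seen.

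Of 6 acinar transcription factors 4 were at least 2-fold higher in CPF at E16.5. Ptf1a, the helix-loop-helix subunit of PTF1, read 8.92 TPM in E16.5 CPF and was listed at 0 in the 7 other libraries. Rbpjl, its partner in mature acinar cells, read 5.27 TPM in E16.5 CPF, and 0 to 0.307 TPM elsewhere. Gata4, also a factor of gonad, heart and gut, read 0.625, 13.9, 15.7 and 0.0308 TPM in CPF libraries, against 0.166, 1.60, 0.119 and 0.269 TPM in DMSO libraries. It was thus high in E14.5 CPF as well. Spdef, a factor of secretory epithelia, read 1.11, 2.17, 9.89 and 0.287 TPM in CPF libraries, against at most 0.259 TPM in any DMSO library.

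The accessory secretory genes were mixed. Of the 15 above 0 in any library, 6 had at least 50% of their TPM in E16.5 CPF, where 1.58% of all symbols above 0 did. At E16.5, 5 of 17 were at least 2-fold higher in CPF. Serpini2, a serpin of acinar cells, read 37.0 TPM in E16.5 CPF and 0 to 0.300 TPM elsewhere. Sycn, syncollin of the zymogen granule, read 12.4 TPM against 0 to 0.219 TPM elsewhere. Spink1, the trypsin inhibitor, instead was higher at each later stage, with 0.482, 24.9, 57.9 and 371 TPM in CPF libraries and 0.192, 12.7, 85.6 and 177 TPM in DMSO libraries. Klk1, a kallikrein that the kidney tubule also makes, read 0, 0.324, 2.79 and 59.4 TPM in CPF libraries, against 0, 0.452, 5.10 and 16.8 TPM in DMSO libraries. At E16.5 both lay lower in CPF than in DMSO. Tmed6, a protein of the secretory pathway, had a log2 difference of 0.51 at E16.5.

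Islet lists were in part above. Among 6 hormone genes, Pyy (peptide YY, of islet and gut endocrine cells) read 28.5 TPM in E16.5 CPF and 0 to 0.199 TPM elsewhere. Sst, somatostatin of delta cells, read 0.338, 1.57, 4.34 and 0 TPM in CPF libraries, against 2.96, 0.165, 0 and 0.203 TPM in DMSO libraries. Ghrl, ghrelin, with 4 RefSeq transcripts in the files, read 0.293 TPM in E16.5 CPF, against 1.58 TPM in E16.5 DMSO, and Gast, gastrin, had a log2 difference of 1.94 at E16.5. Of 16 islet transcription factors 6 were at least 2-fold higher in CPF at E16.5. Neurog3, which commits progenitors to the endocrine lineage, read 8.63 TPM in E16.5 CPF, against 0 to 0.524 TPM elsewhere, and was named after its values were seen, as was Pdx1. Other factors of this list were low in that library. Mafa read 0.0750 TPM in E16.5 CPF, and Neurod1 0.942 TPM, against 0 to 0.210 TPM elsewhere. Rfx6, Pax4 and Pax6, each with several RefSeq transcripts, were listed at 0.0471, 0 and 0 TPM. These too were named after their values were seen. Irx1, which the kidney also uses, read 34.3 TPM in E18.5 CPF, above its 10.7 TPM in E16.5 CPF. Irx2, its relative, had a log2 difference of 0.44 at E16.5 and 2.31 at E18.5, and Isl1, also a factor of neurons, one of 3.65 at E16.5 and 1.71 at E14.5. Of 13 progenitor and duct genes, 5 were at least 2-fold higher in CPF at E16.5, where 4.73% of all symbols were. At E18.5 the count was also 5, where 12% of all symbols were. The median log2 difference of this list was 0.52 at E16.5 and 0.74 at E18.5. Pdx1, the factor of the whole pancreatic bud, read 5.61 TPM in E16.5 CPF, against 0 to 0.262 TPM elsewhere. Krt19, a keratin of duct epithelium that the kidney's collecting system also makes, read 8.03, 39.0, 128 and 59.5 TPM in CPF libraries, against 4.70, 21.1, 54.7 and 47.8 TPM in DMSO libraries. The others of this list with a high mean did not stand out at E16.5: the log2 difference was 0.12 for Bicc1, an RNA-binding protein, -0.02 for Sox9, a duct factor that the kidney also uses, and -0.40 for Cftr, the chloride channel of ducts. Bicc1 read 130 TPM in E18.5 CPF, against 39.3 TPM in E18.5 DMSO.

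Of 23 islet secretory and metabolic genes, 11 were at least 2-fold higher in CPF at E16.5 and 1 was lower. The lower gene was Tmem27 (collectrin), which the proximal tubule also makes, with 51.5 TPM in E16.5 CPF, against 108 TPM in E16.5 DMSO. Slc2a2, the glucose transporter of beta cells, liver and proximal tubule, was highest in E18.5 CPF at 127 TPM, against 36.3 TPM in E18.5 DMSO. Cpe, the carboxypeptidase that trims prohormones, had a log2 difference of 0.94 at E16.5. Ttr, transthyretin of islet and liver, read 5.55, 122, 221 and 27.6 TPM in CPF libraries, against 0.0661, 23.6, 0.498 and 4.44 TPM in DMSO libraries.

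**Figure D3:**
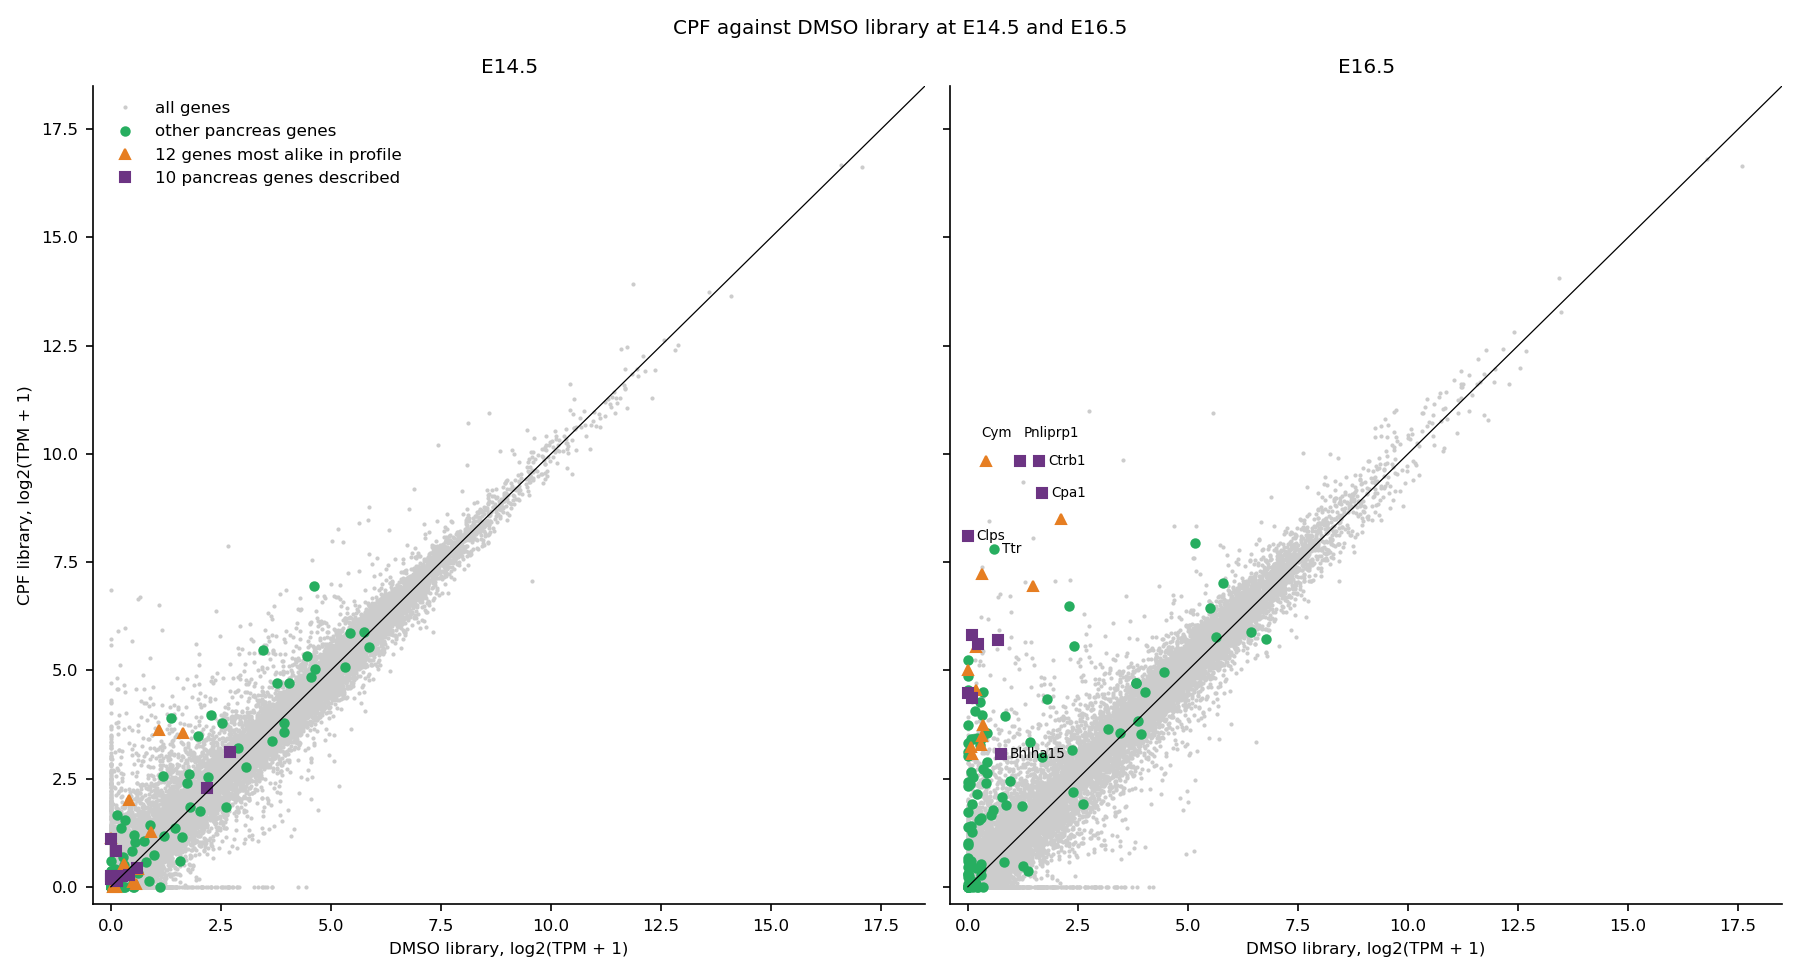
Level of every gene symbol in the CPF library (y axis) against the DMSO library (x axis) of the same stage, both as log2(TPM + 1), at E14.5 (left) and E16.5 (right), with the line of equal levels. The 10 genes (squares) lie nearer to the line at E14.5 than at E16.5, where all are above it, as do the 12 genes most alike in profile (triangles), while only some other pancreas genes (circles) do.

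Tested across the 4 stage pairs with limma, 0 of 42 other pancreas genes that passed the filter of 1 TPM in at least 2 libraries were called higher or lower in CPF after Benjamini-Hochberg adjustment over 13677 genes. At an unadjusted p under 0.05 there were 13 of 42, all higher, against 1306 of 13677 over all genes, whose directions are not given here. The median log2 difference was 0.54 over the 42 and 0.15 over all genes tested. Among the 13 were Ttr, Slc2a2, Irx1 and Krt19, which liver or kidney also make, and Chga, which is on the sympathoadrenal list too. Over all genes 0.154% were called higher and 0.00731% lower. The count for other pancreas genes depended on the stage pairs used: it was 3 without E12.5, 10 without E14.5, 1 without E16.5 and 0 without E18.5, all higher. The count over all genes changed as well. In the same order 97, 192, 36 and 46 genes were called higher, against 21 with all 4 pairs. Of the 10 genes themselves, 4 passed that filter (Pnliprp1, Ctrb1, Cpa1 and Cela2a) and 6 did not. The mean log2 difference of the 10 over the 4 stages was 0.66 to 2.55, and without the E16.5 pair it was -0.016 to 0.53.

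A second fit, added after these values were seen, asked whether the CPF minus DMSO difference at E16.5 exceeded that at the 3 other stages. It called 28 genes higher and 2 lower of 14896 with at least 1 TPM in any library (0.188% and 0.0134%). Of the other pancreas genes 72 were tested, and 5 passed, all higher. Of these 72, 26 reached 1 TPM only in E16.5 CPF, so that they entered through the library where they are high and had to differ. Serpini2, Pyy, Cela3b and Sycn, 4 of the 5, are among these 26, and their p-values are not given. Ttr, which is also on the liver list, was the 1 that passed among the 46 genes at 1 TPM elsewhere too (log2 difference 4.77 ± 0.70 SE, adjusted p = 0.00951 with limma). With only genes that reached 1 TPM outside E16.5 CPF in the fit, the 1 pancreas gene called was again Ttr (adjusted p = 0.011 with limma). With quantile normalization, with scaling to coding transcripts, or with a pseudocount of 0.1, 0 other pancreas genes were called. Calls were not particular to pancreas genes. Genes of the stomach and duodenum, spleen mesenchyme, liver, adrenal cortex and sympathoadrenal lists were called higher too. In 5 lists no gene entered only through E16.5 CPF. Their median log2 difference in this fit was 3.08 for liver, 2.99 for adrenal cortex and 2.58 for sympathoadrenal genes. It was -0.01 for gonad and germ cell and -0.15 for kidney genes. In simulated data the share of false calls in both fits was above the threshold set, so a call of a single gene is read with that limit. Those data held only genes at 1 TPM in at least 2 libraries.

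Markers of organs beside the pancreas were in part high in the same library. Of 17 stomach and duodenum genes, 11 were at least 2-fold higher in CPF at E16.5. Of the 16 above 0 in any library, 8 had at least 50% of their TPM in E16.5 CPF, where 1.58% of all symbols above 0 did. The 17 summed to 7.73, 46.2, 143 and 95.9 TPM in CPF libraries in order of stage, against 2.07 to 17.4 TPM in DMSO libraries. Some genes of this list were higher in another CPF library. Vil1 read 86.4 TPM in E18.5 CPF, above its 24.5 TPM in E16.5 CPF. Fabp1 and Fabp2 read 30.0 and 6.84 TPM in E14.5 CPF, against 28.5 and 4.89 TPM in E16.5 CPF. Barx1, a factor of stomach and spleen mesenchyme, read 30.7 TPM in E16.5 CPF, against 0 to 0.593 TPM elsewhere, and Tff3, a trefoil peptide of mucus, 21.0 TPM against 0 to 1.24 TPM elsewhere. Cldn18, a tight-junction gene with 4 RefSeq transcripts in the files, stood at 0 in every library, and the stomach genes Gkn1 and Gkn2 were at or below 0.267 TPM. Of 6 spleen mesenchyme genes 5 were at least 2-fold higher at E16.5, with a sum of 7.92 to 53.0 TPM in CPF and 7.22 to 18.0 TPM in DMSO libraries. Tlx1 and Nkx2-5, its defining factors, read 1.64 and 2.07 TPM in E16.5 CPF, and with Cldn18, Gkn1 and Gkn2 they were named after their values were seen. The part of these organs in the values of the 10 genes was not tested.

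Liver, adrenal, gonad and sympathoadrenal genes were high in E14.5 CPF as well. Liver genes (12 of 15 at least 2-fold higher at E16.5) summed to 222, 5266, 6342 and 1314 TPM in CPF libraries, against 23.3, 1054, 102 and 73.9 TPM in DMSO libraries. Alb read 60.9, 1668, 2036 and 373 TPM in CPF libraries, against 3.89, 278, 5.77 and 2.03 TPM in DMSO libraries. Adrenal cortex genes (8 of 10 higher) summed to 89.3, 866, 812 and 173 TPM in CPF libraries, against 54.9, 105, 118 and 73.1 TPM in DMSO libraries. Hsd3b1, a steroid-making enzyme, read 233 TPM in E14.5 CPF and 165 TPM in E16.5 CPF. Gonad and germ cell genes (5 of 9 higher at E16.5) peaked in E14.5 CPF, at 263 TPM, against 25.6 TPM in E14.5 DMSO. Sympathoadrenal genes (8 of 11 higher) peaked there too, at 247 TPM, against 147 TPM in E14.5 DMSO. Their DMSO sum was also highest at E14.5, so they were high at that stage with both agents. The E14.5 CPF library, in which liver, adrenal and gonad sums were high, held 14.6 TPM of the 10 pancreas genes, against 10.2 TPM in E14.5 DMSO. Kidney genes had a median log2 difference of -0.62 at E16.5, with 0 of 15 at least 2-fold higher and 4 lower. The part of these organs in the pancreas values was not tested.

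**Figure D4:**
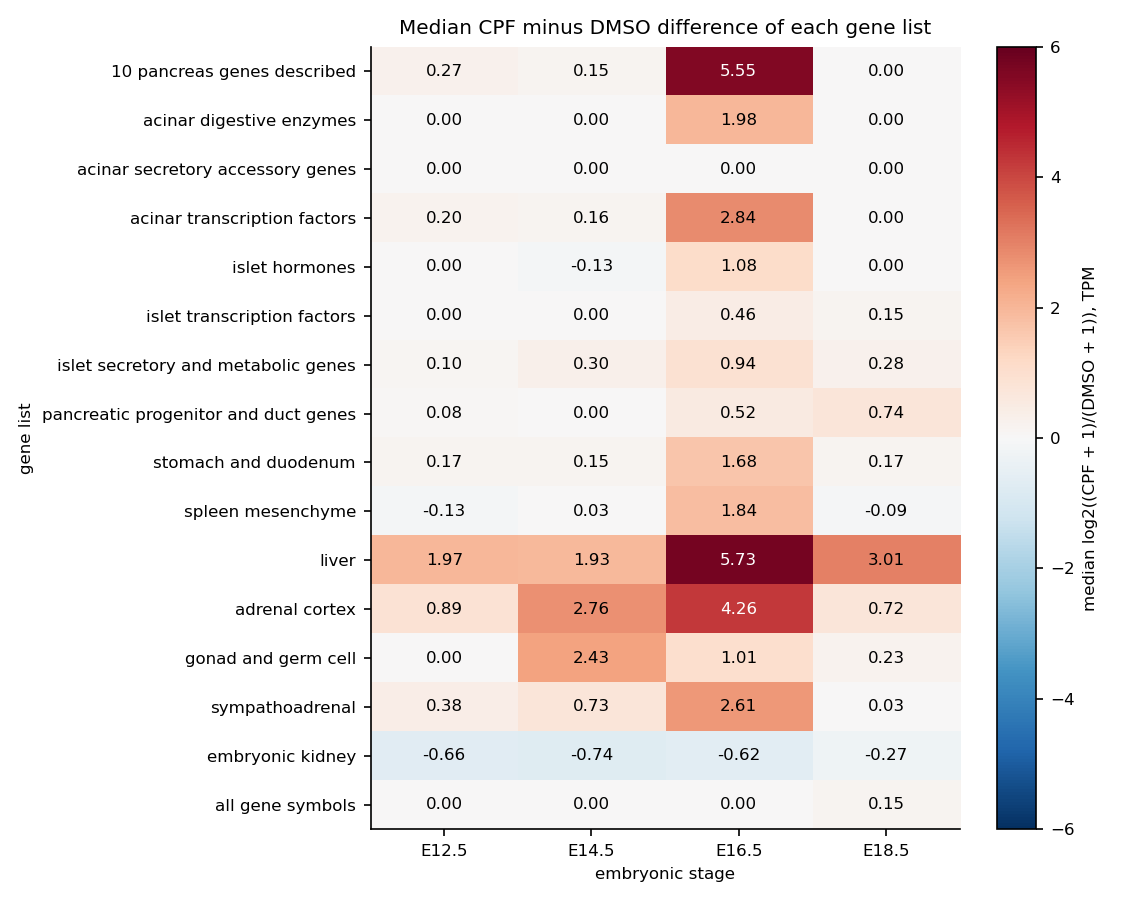
Median log2((CPF + 1)/(DMSO + 1)) of TPM for the 10 genes and each gene list (rows) at each stage (columns), red where CPF was higher. The 10 genes have a median of 5.55 at E16.5 (7.41 for the exocrine ones), the liver list at all 4 stages (1.93 to 5.73) and the kidney list below 0 at all 4 (-0.74 to -0.27).

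The genes on no list whose share profile over the 8 libraries overlapped most with that of the 10 were the same 12 for the exocrine and the endocrine genes, among 11683 compared. Overlap is the sum over libraries of the smaller of the shares. For the exocrine profile it was 84.7 to 95.0%, and for the endocrine one 80.9 to 98.7%. Cym, the milk-clotting stomach protease chymosin, read 910 TPM in E16.5 CPF and 0 to 0.658 TPM elsewhere, a level close to those of Pnliprp1 and Ctrb1. Actg2, the actin of enteric smooth muscle, read 358 TPM against 1.36 to 15.3 TPM elsewhere. Krt13, Krt15 and Krt6a, keratins of stratified epithelium, read 149, 122 and 12.3 TPM in E16.5 CPF. Foxf1 and Foxf2, factors of gut mesenchyme, read 31.2 and 8.39 TPM there, and Adamdec1, a metalloprotease, 45.5 TPM against 0 to 0.305 TPM elsewhere. Kcnk16, a potassium channel of islets, read 8.62 TPM, against 0 to 1.18 TPM elsewhere. The others were Fcgbp, a mucus protein (10.3 TPM), Cyp2f2, a cytochrome P450 of airway cells (7.34 TPM), and the homeobox gene Pitx1 (22.4 TPM).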

How the data were processed

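RNA of 8 embryonic kidney libraries was sequenced. The submitters' processing notes name Trimmomatic, STAR and mm10, without versions, and the sources used here do not name the counting step. Each deposited table holds 1 library, with a TPM value that the authors computed for each RefSeq transcript. Here 32862 transcripts were summed into 24151 symbols. In 52 rows the symbol was missing, date-like or number-like, and it was restored by accession or replaced by the accession itself. The value of 1 read was estimated from the spacing of low values, as the step that divided more of them evenly than any other step tried (47.3 to 63.4% by library, within 0.05 reads). Files hold TPM, so limma 3.58.1 in R 4.3.3 (trend, robust) was run on log2(TPM + 1) with stage and agent as terms, a filter of 1 TPM in at least 2 libraries, and calls at an adjusted p under 0.05 over all genes. The spread behind p is that between stage pairs (3 residual degrees of freedom, 2 in the added E16.5 fit), not between animals. A fold on this scale understates low genes. Both fits were tested on simulated data of the 13677 genes with 1 TPM in at least 2 libraries. There the share of false calls exceeded the threshold, and smaller changes at E16.5 were mostly missed. Genes that entered the E16.5 fit through 1 library only were not simulated.

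The 10 genes and all lists were chosen with earlier results of these data known. Of the listed pancreas genes 1 of 101 was not analysed here, 20 of 100 have several RefSeq transcripts, and 4 are also on another organ's list. Named are the 10 genes, up to 4 genes of each pancreas list and 3 of each other list by mean TPM, every called pancreas gene, and the 12 most alike in profile, and some genes that this rule takes are not reported here. Promoters are from RefSeq (GRCm38.p6). Alternatives were quantile normalization, coding scaling, other filters, a pseudocount of 0.1, a linear day term and leaving out stage pairs.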

Additional observations from a re-analysis of the deposited data

Results flagged for a closer look

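Ttr, which is also on the liver list, had a larger CPF minus DMSO difference at E16.5 than at the 3 other stages. It was larger by 4.77 on the log2 scale, in the limma fit added after the values were seen. In that fit the liver list had a median of 3.08 and the adrenal cortex list one of 2.99. Ttr was not called with quantile normalization, with scaling to coding transcripts or with a pseudocount of 0.1.

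Sst and Tmem27 went opposite ways at different stages, at least 2-fold each way, and that difference was not tested. Sst was higher in CPF at E16.5 (log2 difference 2.42) and lower at E12.5 (-1.57), with 0.338 TPM in E12.5 CPF against 2.96 TPM in E12.5 DMSO. Tmem27 was higher in CPF at E12.5 (2.15) and lower at E16.5 (-1.06). The share of all symbols that went opposite ways in this manner was not counted, so nothing is read from the number of such genes.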

How the results depend on the processing

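The count of the 10 genes at E16.5, fixed by how they were chosen, was 10 with quantile normalization, coding scaling and a pseudocount of 0.1. At E12.5, E14.5 and E18.5, where 1 of 10 was, it was 0 at each with quantile normalization, 5, 4 and 2 with a pseudocount of 0.1, and 0 at E18.5 with coding scaling. Leaving out the E16.5 pair turned the mean log2 difference of Iapp to -0.016, and over all stage pairs left out it ranged up to 1.55.

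Across stages the 21 higher and 1 lower genes became 0 and 0 with quantile normalization, without a filter and with a linear day term, and 1 and 0 with coding scaling. They became 43 and 7 with a filter of 4 libraries, 77 and 6 with a pseudocount of 0.1, and 36 to 192 and 3 to 34 without a stage pair each. Other pancreas genes called higher (0) became 1 with the filter of 4 libraries, 1 with the pseudocount of 0.1, and 0 to 10 without a stage pair each.

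In the added E16.5 fit the 28 higher and 2 lower genes, with 5 other pancreas genes among the higher, became 0, 0 and 0 with quantile normalization and 2, 0 and 0 with coding scaling. They became 17, 14 and 0 with a pseudocount of 0.1, 13 higher and 1 pancreas gene with a filter of 2 libraries, and 14 higher and 1 pancreas gene where 1 TPM had to be reached outside E16.5 CPF. Without 1 of the other stage pairs each they ranged from 55 to 157 higher, 23 to 123 lower and 11 to 18 pancreas genes. The cause of these changes was not tested.

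The fit across stages pairs the CPF and DMSO libraries of a stage, and the linear day term replaces that pairing by a line over days. The median log2 difference of genes tested was 0.13 at E16.5 and 0.53 at E18.5 as deposited, and -0.05 and 0.14 with coding scaling. The value of 1 read limits statements on levels under 0.1 TPM.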
